A study of Mus musculus with 4 samples.

Results

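The genes described here are those of the mouse MHC class II presentation system, namely the class II chains H2-Aa, H2-Ab1 and H2-Eb1, the invariant chain Cd74, the transactivator Ciita, and the peptide loading genes H2-DMa, H2-DMb1, H2-DMb2 and H2-Oa. They were chosen by name, and all 9 were present among the 32285 genes measured. Their RNA was followed in CD45+ leukocytes sorted from 20967 melanomas, a C57BL/6 line with the alleles Nras+LSL-G12D and Tyr::CreERT2+/o that was grown intradermally in wild type C57BL/6 mice. All mice carried this 1 line. The control group (5 mice) received a control drug, and the glucocorticoid (GC) group (5 mice) received clobetasol propionate, a potent topical GC. Hashtag antibodies marked the tumor each cell came from, and each group of 5 tumors shared 1 droplet channel, so that treatment and channel cannot be told apart. The age of the mice is not given in the sources used here.

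The table held 3803 control and 305 GC cells in 16 clusters named by the authors, after 17100 and 3500 cells were loaded. A control tumor gave 347 to 1250 cells and 2735708 to 9869474 unique molecular identifiers (UMIs, each standing for 1 captured RNA molecule), and a GC tumor gave 18 to 111 cells and 139195 to 1235264 UMIs. The median cell held 7440 UMIs in control and 9163 in GC tumors, and no barcode occurred in both channels (0 shared). Levels are given as the share of a cell's UMIs that a gene held, in UMIs per 10000. They were averaged over the cells of a class in a tumor, or pooled over a cluster where stated, and the tumor was the replicate.

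MHC class II molecules hold peptides from ingested or lysosomal proteins at the cell surface, where CD4 T cells read them. An α and a β chain assemble on the invariant chain, travel to the lysosome, and exchange a remnant of that chain for peptide with the help of H2-DM, which H2-O restrains. In mice the system runs mainly in dendritic cells (DCs), B cells and activated macrophages. Its genes are switched on together by Ciita, a coactivator that binds no DNA itself but sits on factors assembled over the X and Y boxes of their promoters.

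In the GRCm38 annotation (build mm10, as used by the authors) 7 of the genes lie close together on chromosome 17. H2-Oa lies at chr17:34092340-34095234 (+ strand), H2-DMa at chr17:34119541-34139101 (+), H2-DMb2 at chr17:34143307-34151555 (+), H2-DMb1 at chr17:34153072-34160230 (+), H2-Ab1 at chr17:34257689-34269419 (+), H2-Aa at chr17:34282744-34287823 (-) and H2-Eb1 at chr17:34305867-34316674 (+). Ciita lies apart at chr16:10480059-10528418 (+). All are protein coding. Exons of Brd2, BC051537 and Dexi overlap H2-DMa, H2-Oa and Ciita on the other strand, so reads of these pairs are told apart only where counting used strand. The last 500 bases of H2-DMb1 share a run of 141 identical bases with H2-DMb2. Of their 411 windows of 90 bases, 52 (12.7%) are shared. In the last 500 bases of H2-DMb2 the longest run shared with H2-DMb1 is 34 bases, and 0 of 411 windows are shared. Reads in a shared stretch can be exchanged or dropped, and the levels of these neighbors are uncertain to that extent.

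The promoter stretch that Ciita acts through is shown for the genes below, although not every gene searched held both the X and the Y box. RefSeq promoters (GRCm38.p6, from 250 bases before to 50 bases after the start) were at hand for 6 of the 9 genes. Both strands were searched for the 13-letter X box with up to 2 mismatches and for the Y box core CCAAT, which reads ATTGG on the other strand. An X box followed 30 to 45 bases downstream by ATTGG was present in H2-Eb1 (36 bases), H2-DMb1 (37 bases), H2-DMb2 (37 bases) and H2-Oa (37 bases), and in 68 (0.207%) of all 32851 promoters. Alone, the X box was found in 21.5% and the Y box core in 37.4% of all promoters. H2-DMa had no X box match at either of its 2 listed starts, and H2-Aa had the Y box core 48 bases before the start but, at 3 mismatches, no X box under this rule. A match is a description of the letters, not a measured binding site. The stretches run from 150 to 21 bases before the start, 5′ to 3′ on the strand of the gene, with the X box match and ATTGG in capitals. They lie at chr17:34305717-34305846 (+) for H2-Eb1, chr17:34153041-34153170 (+) for H2-DMb1, chr17:34145099-34145228 (+) for H2-DMb2, chr17:34092229-34092358 (+) for H2-Oa and chr17:34287844-34287973 (-) for H2-Aa.
H2-Eb1: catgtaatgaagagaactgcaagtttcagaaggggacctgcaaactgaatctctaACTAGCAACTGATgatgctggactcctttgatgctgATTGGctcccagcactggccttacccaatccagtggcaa
H2-DMb1: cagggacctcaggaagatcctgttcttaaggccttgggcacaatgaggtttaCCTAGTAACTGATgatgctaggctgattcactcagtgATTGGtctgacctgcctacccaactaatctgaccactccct
H2-DMb2: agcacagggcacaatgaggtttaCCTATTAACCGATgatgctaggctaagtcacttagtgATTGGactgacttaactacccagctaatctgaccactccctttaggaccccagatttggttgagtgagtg
H2-Oa: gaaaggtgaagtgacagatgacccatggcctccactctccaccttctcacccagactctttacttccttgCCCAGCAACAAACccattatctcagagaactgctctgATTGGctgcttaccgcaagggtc
H2-Aa: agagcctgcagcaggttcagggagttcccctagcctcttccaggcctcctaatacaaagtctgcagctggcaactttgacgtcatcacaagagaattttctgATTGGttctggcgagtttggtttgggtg

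In control tumors, class II RNA marked the myeloid antigen presenting clusters. Cluster DC 2 had the highest level of H2-Aa, the α chain of the I-A molecule, with 57.6 ± 6.36 UMIs per 10000 (SD, n = 5 tumors, range 48.4 to 63.0). Tumor-associated macrophages (TAMs) followed at 35.2 ± 1.38 (n = 5, range 33.6 to 36.9), and these ranges did not overlap. DC 1 reached 14.7 ± 4.30 (n = 4) and Monocytes 1 reached 12.8 ± 1.68 (n = 4), and these neighbors overlapped. Monocytes 2 (4.78 ± 2.9, n = 5) lay below Monocytes 1 without overlap but overlapped eosinophils (3.07 ± 0.548, n = 5). From eosinophils down, every cluster overlapped the next, through the CD4 cluster (1.45 ± 1.16), neutrophils (0.821 ± 0.302) and Tregs (0.582 ± 0.123) to CD8 3 (0.413 ± 0.0186, n = 3). Monocytes 3 had too few cells per tumor for this order. Its 22 pooled cells held 46.8 H2-Aa UMIs per 10000, between TAMs and DC 2. Class II genes were among the genes used to cluster and name the cells, so these levels describe the clusters and were not tested.

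The other classical genes followed a similar order. Cd74, the chaperone that occupies the groove until the lysosome, was at 107.8 pooled UMIs per 10000 in DC 2, 84.8 in TAMs, 31.2 in Monocytes 1 and 28.9 in DC 1. H2-Ab1, the β chain partner of H2-Aa, had 54.7 in DC 2, 40.8 in TAMs and 11.1 in DC 1. H2-Eb1, the β chain of the I-E molecule, whose α chain C57BL/6 mice lack, had 37.4, 21.9 and 12.5 in those clusters. Ciita, the switch of the system, had 3.17 in DC 2 and 1.67 in TAMs, and over tumors these ranges did not overlap (2.18 was the lowest DC 2 tumor and 1.92 the highest TAM tumor). In DC 1 Ciita stood at 0.347, and over tumors DC 1 overlapped both Monocytes 2 and eosinophils.

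Of the peptide loading genes, H2-DMb2 and H2-Oa were higher in DC 2 than in TAMs in every control tumor, while the ranges of H2-DMb1 overlapped and those of H2-DMa just did not. H2-DMa and H2-DMb1, the chains of the peptide editor H2-DM, stood at 3.89 and 3.96 pooled UMIs per 10000 in DC 2 and at 3.30 and 3.93 in TAMs. H2-DMb2, the other β chain of H2-DM, had 1.81 in DC 2 but 0.210 in TAMs. The ratio of H2-DMb2 to H2-DMb1 UMIs was 0.456 in DC 2 (95% counting interval 0.394 to 0.526), 1.60 in DC 1 (1.09 to 2.38) and 0.0534 in TAMs (0.0460 to 0.0617). H2-Oa, the α chain of the H2-DM inhibitor H2-O, had 1.28 in DC 2, 0.190 in DC 1 and 0.0900 in TAMs. Intervals here and below cover counting error only.

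**Figure D1:**
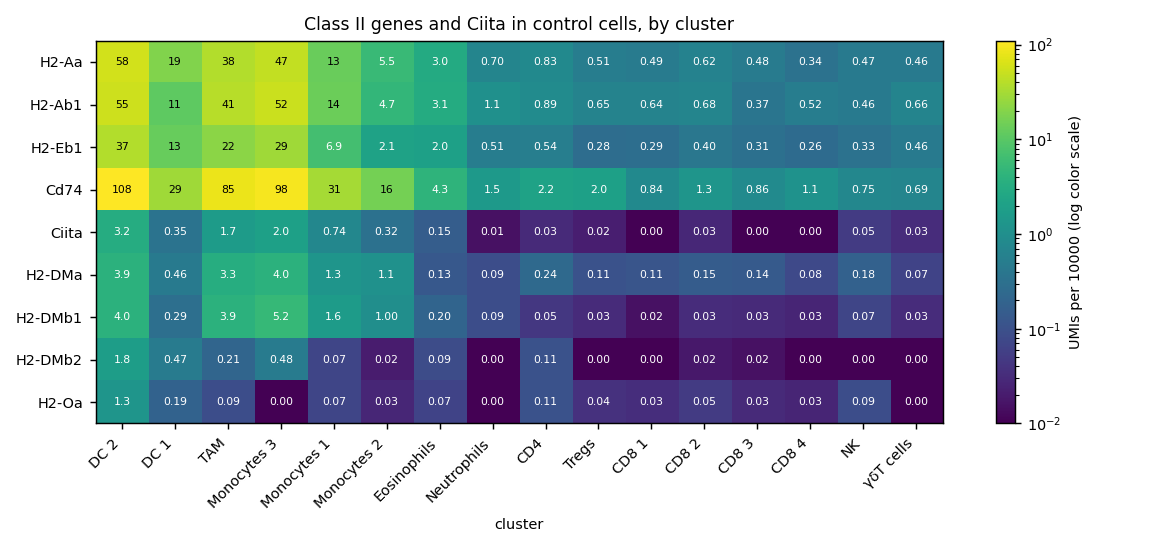
Pooled UMIs per 10000 of each gene in the control cells of each of 16 clusters, printed in each square and colored on a log scale from 0.01 upward. DC 2, TAM and Monocytes 3 carry the brightest columns, and H2-DMb2 and H2-Oa are brightest in DC 2 (1.81 and 1.28).

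The DC clusters were unlike each other. In DC 1, 93 of 97 control cells held a UMI of Ccr7, the receptor of DCs that migrate to lymph nodes, and H2-Aa stood at 19.3 in those cells. Of 95 control DC 2 cells, 12 held a UMI of Xcr1 or Clec9a (markers of the DC subset specialized in cross-presentation) and had H2-Aa at 63.1 and Cd74 at 127.9. Another 23 cells with a Cd209a UMI, a marker found on CD11b+ DCs, had H2-Aa at 58.2 and Cd74 at 115.5. The 16 cells with a Ccr7 UMI had 67.3 and 102.7. A single cell with a Siglech UMI, a marker of plasmacytoid DCs, had H2-Aa at 0.512, which rests on 1 UMI.

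By number of molecules, TAMs were the main store of class II RNA. They were 19.0% of control cells and held 65.7% of the UMIs of H2-Aa, H2-Ab1, H2-Eb1 and Cd74. DC 2 were 2.50% of cells and held 15.0%, and Monocytes 1 were 8.18% and held 9.31%. In GC tumors TAMs were 14.1% of cells and held 53.9% of these UMIs, DC 2 were 2.95% and held 30.9%, DC 1 were 3.28% and held 11.4%, and Monocytes 1 were 5.90% and held 3.17%. These GC shares rest on 43 TAMs, 9 DC 2, 10 DC 1 and 18 Monocytes 1 cells.

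Across the 16 control clusters, the genes outside the list whose pooled levels were most like the mean of H2-Aa, H2-Ab1, H2-Eb1 and Cd74 were Htr7 (Pearson r = 0.974 on the log2 scale), Adap2 (0.959), Plekho1 (0.958), Dapk1 (0.958), Ifi30 (0.956), Nrg1 (0.955), F11r (0.952), Tbc1d9 (0.947), Aif1 (0.947) and Dab2 (0.946), out of 4597 genes ranked. Ifi30 encodes a lysosomal thiol reductase of antigen processing. Of the listed genes, Ciita had r = 0.977, H2-DMb1 0.954, H2-DMa 0.939, H2-DMb2 0.852 and H2-Oa 0.505. The clusters came from 1 channel and differed in depth, so these values only describe likeness.

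In TAMs, 5 of 8 class II genes tested fell after GC treatment (H2-Aa, H2-Ab1, Cd74, Ciita and H2-DMb1), where 14.3% of all genes tested in TAMs fell and 21.2% changed in either direction (limma, 5 control against 2 GC tumors with at least 10 TAMs). edgeR called the same 5 genes (adjusted p = 0.00783 to 0.0338), where it called 11.2% of all genes. In simulated tumor sums with a fixed spread and none between cells, limma made more false calls than its threshold allows and edgeR did not. The sums were of the kind that edgeR assumes, so this does not show how often either tool errs on these data. The falls of the 5 genes lay between 0.70 and 1.02 on the log2 scale. H2-Eb1, H2-DMa and H2-DMb2 did not pass, and H2-Oa was under the filter on low values. The median change was -0.73 over the 8 genes and -0.12 over all genes tested.

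H2-Aa had 34.4, 34.8, 36.3, 33.6 and 36.9 UMIs per 10000 in TAMs of the control tumors against 15.8 and 27.0 in GC tumors 2 and 3. Every control tumor was above both GC tumors, and the log2 difference was -0.77 ± 0.16 (SE, limma adjusted p = 0.00888). H2-Ab1 had 36.5, 38.5, 41.6, 36.0 and 36.5 against 15.6 and 26.6, again without overlap (-0.89 ± 0.17, adjusted p = 0.00485). The I-E β chain H2-Eb1 had 19.4, 19.3, 21.5, 19.3 and 19.97 against 9.11 and 18.3. Here GC tumor 3 lay just under the controls, and the difference of -0.62 ± 0.21 missed the threshold (adjusted p = 0.0577).

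The invariant chain Cd74 had 72.3, 80.0, 82.9, 73.9 and 81.9 in control TAMs against 39.2 and 59.2 after GC treatment (-0.70 ± 0.14, adjusted p = 0.00566). The transactivator Ciita had 1.61, 1.85, 1.92, 1.22 and 1.35 against 0.757 and 0.689. That difference was the widest of the 8 class II genes tested in TAMs, -1.02 ± 0.18 (adjusted p = 0.00329), on 46 UMIs in the GC tumors. The editor chain H2-DMb1 had 3.66, 3.68, 4.40, 3.97 and 3.19 against 1.97 and 2.22 (-0.82 ± 0.14, adjusted p = 0.0024). Its partner H2-DMa overlapped between the groups, with 3.03 ± 0.278 (SD, n = 5) in control and 2.72 ± 0.916 (n = 2) in GC tumors (-0.19 ± 0.17, adjusted p = 0.469). H2-DMb2 overlapped too, at 0.204 ± 0.0451 (n = 5) and 0.353 ± 0.340 (n = 2), with a log2 difference of 0.35 ± 0.38 (adjusted p = 0.542). Pooled over all GC tumors, the ratio of H2-DMb2 to H2-DMb1 UMIs in TAMs was 0.168 (0.110 to 0.248) beside 0.0534 in control. The UMIs of H2-DMb2 and H2-DMb1 were 15 and 55 in GC tumor 2, 12 and 36 in GC tumor 5, 3 and 73 in GC tumor 3, and 0 and 15 in GC tumor 4. Only GC tumors 2 and 5 thus lay above the control ratio, and without GC tumor 3 the pooled ratio was 0.255.

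The control and GC tumors did not overlap for 6 of the 8 genes, all of them lower after GC treatment, where 23.6% of all genes tested were lower without overlap. Of the GC tumors with too few TAMs for the test, GC tumor 5, with 7 TAMs, had H2-Aa at 43.2 and H2-Eb1 at 30.9, above every control tumor, while its Ciita level was 0.861 and its H2-DMb1 level 2.69. GC tumor 4 (3 TAMs) had H2-Aa at 23.5 and Ciita at 0.587. In an exact two-sided permutation test with these tumors added (5 against 4, smallest possible p 0.00794), H2-Ab1, Ciita and H2-DMb1 each had p = 0.00794, Cd74 had p = 0.0238, H2-Aa p = 0.127 and H2-Eb1 p = 0.563. H2-DMa was then 0.05 higher on the log2 scale (exact p = 0.817), H2-DMb2 0.21 higher (exact p = 0.802) and H2-Oa 0.41 higher (exact p = 0.341). With a minimum of 5 TAMs, 3 of 8 genes were called by limma (16.9% of all genes) and 3 by edgeR (12.4%). H2-Oa then had 0.0859 ± 0.0191 (SD, n = 5) in control and 0.252 ± 0.139 (n = 3) in GC tumors, which rests on 6, 3 and 5 UMIs in GC tumors 2, 3 and 5 (exact p = 0.0357, not adjusted). A fit that weighted tumors by their cells called 0 of 8 (6 at an unadjusted p under 0.05, and 0.802% of all genes). Leaving out GC tumor 2 or GC tumor 3 left a single GC tumor, and no count is read from those fits.

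**Figure D2:**
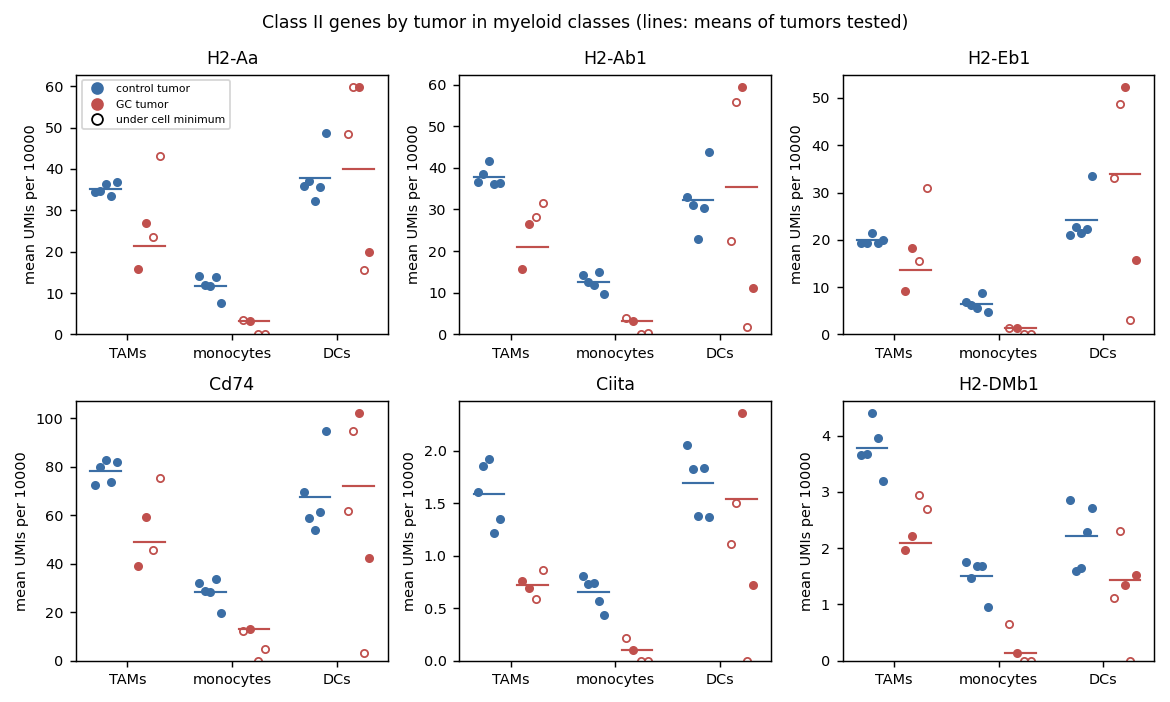
Mean UMIs per 10000 (vertical axes, linear) of 6 genes in each tumor for TAMs, monocytes and DCs, with control tumors in blue, GC tumors in red, open circles for tumors under the cell minimum and lines for the means of the tumors tested. GC tumors 2 and 3 sit below the 5 control tumors in TAMs, GC tumor 3 sits below them in monocytes, and the tested GC tumors lie on both sides of the controls in DCs, except for H2-DMb1, where both lie below them.

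Macrophage identity genes overlapped between the groups in their summed level. The 7 macrophage markers reported here (C1qa, C1qb, C1qc, Apoe, Csf1r, Adgre1 and Lyz2) were all detected in TAMs of every tumor tested, with a summed level of 64.3 to 83.9 in control and of 72.2 and 89.0 in GC tumors. Single markers differed. The ratio of control to GC UMIs in TAMs was 0.622 (0.576 to 0.674) for C1qb, 0.75 (0.685 to 0.823) for C1qc and 0.894 (0.857 to 0.933) for Apoe. It was 1.00 (0.929 to 1.09) for C1qa and 1.05 (0.975 to 1.12) for Lyz2. Neutrophil markers rose in their sum but not each as a single gene, since S100a9 and Retnlg were lower after GC treatment. Their sum (S100a8, S100a9, Csf3r, Cxcr2 and Retnlg) in TAMs was 0.896 to 1.18 in control tumors (5 of 5 markers detected) and 1.93 and 3.63 in GC tumors 2 and 3 (3 of 5, with S100a9 and Retnlg at 0). DC markers summed to 0.133 to 0.249 in control tumors (2 to 7 of 8 detected) and to 0.323 and 0.0307 in GC tumors (2 and 1 of 8, Zbtb46, Xcr1, Clec9a, Cd209a, Ccr7 and Siglech at 0 in both). B cell markers summed to 0.0678 to 0.170 in control tumors (2 to 4 of 6 detected) and stood at 0 in both GC tumors. The part of these markers in the result was not tested.

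Within tumors, single TAMs ranged widely. The median TAM held 32.3 to 38.8 H2-Aa UMIs per 10000 in the control tumors, 2.57 in GC tumor 2 (17 cells) and 14.4 in GC tumor 3 (16 cells). The highest cells of these GC tumors still held 114.0 and 93.8, within the range of control cells, whose highest values per tumor were 102.2 to 161.7. GC tumor 5 (7 cells) had a median of 45.4. Control tumors held cells low in H2-Aa as well, and the lower quartile of control tumor 4 lay at 3.82 and those of the other control tumors at 10.7 to 19.0. After thinning each cell to 1000 UMIs, 81.7% of control TAMs and 55.8% of GC TAMs held an H2-Aa UMI, against 92.95% and 74.4% before thinning at median depths of 12883 and 17855 UMIs.

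**Figure D3:**
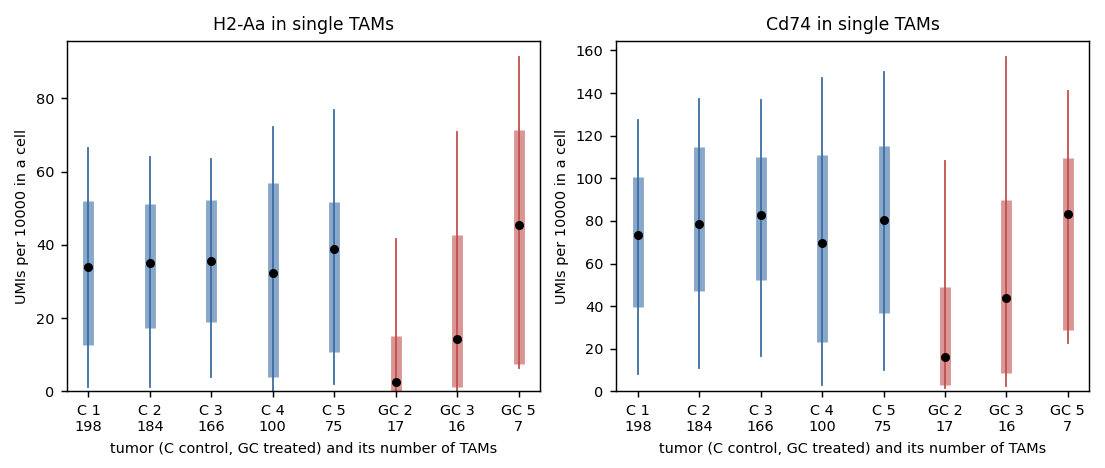
H2-Aa (left) and Cd74 (right) in single TAMs, as UMIs per 10000 of the cell, with the median (point), the 25th to 75th percentile (box) and the 10th to 90th percentile (line) in each tumor with at least 5 TAMs. Median H2-Aa lies between 32.3 and 38.8 in the 5 control tumors, at 2.57 and 14.4 in GC tumors 2 and 3 and at 45.4 in GC tumor 5.

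The genes moved together from cell to cell to different degrees. Over the 723 control TAMs, H2-Aa correlated with H2-Ab1 at r = 0.922, with H2-Eb1 at 0.907 and with Cd74 at 0.901. With H2-DMb1 it correlated at 0.634, with H2-DMa at 0.498, with Ciita at 0.384, with H2-DMb2 at 0.196 and with H2-Oa at 0.148. The points share channel and cell depth, and the weaker values belong to genes with few UMIs per cell, where a low correlation is no finding.

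In monocytes, 6 of 7 class II genes tested were called lower, but on a single GC tumor. Only GC tumor 3 reached 10 monocytes, and the background was wide, since 18.2% of all genes tested in monocytes fell and 23.9% changed (limma, 5 against 1, with the spread of the lone GC tumor assumed to equal that of the controls). H2-Aa had 14.1, 11.98, 11.6, 13.9 and 7.56 UMIs per 10000 in control tumors against 3.16 in GC tumor 3, a log2 difference of -1.84 ± 0.31 (adjusted p = 0.0044). GC tumor 2, with 8 monocytes, lay beside it at 3.55. All control tumors were above both. With both tumors (5 against 2, at least 5 cells) limma called the same count of 6, where it called 15.4% of all genes, and each of the 7 genes had p = 0.0476, the smallest that an exact two-sided permutation test can give here. GC tumor 3 held 9 Monocytes 1 and 1 Monocytes 2 cells and 0 of Monocytes 3, the monocyte cluster highest in class II RNA. Within Monocytes 1 alone, with at least 5 cells, the count was 6 again (14.7% of all genes).

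H2-Ab1 fell from 12.7 ± 2.09 (SD, n = 5) to 3.19 (-1.94 ± 0.25, adjusted p = 0.00128), H2-Eb1 from 6.37 ± 1.49 to 1.32 (-2.16 ± 0.29, adjusted p = 0.00172), and Cd74 from 28.5 ± 5.48 to 13.2 (-1.08 ± 0.28, adjusted p = 0.0226). Ciita and H2-DMb1 fell as well (-1.85 ± 0.32 and -2.73 ± 0.31), but each rests on 2 UMIs in the GC tumor. H2-DMa had 1.35 ± 0.0506 in control tumors and 1.05 in the GC tumor and did not pass (adjusted p = 0.247). The control tumors did not overlap GC tumor 3 for any of the 7 genes, where 42.0% of all genes tested were lower without overlap. On the same lone GC tumor edgeR and DESeq2 called fewer genes than limma, among these genes and among all genes tested. A fit weighted by cells called none of these genes. The lower counts are not read as particular to class II genes. Macrophage markers summed to 42.4 to 72.9 in control tumors (7 of 7 detected) and to 43.3 in GC tumor 3 (6 of 7, C1qa at 0). Among them, the ratio of control to GC UMIs was 2.37 (1.38 to 4.47) for C1qb, 5.51 (2.15 to 20.3) for C1qc, 1.62 (1.44 to 1.83) for Lyz2 and 0.653 (0.576 to 0.743) for Apoe, and C1qa was at least 12.9-fold lower against the limit of 3 counts. Neutrophil markers summed to 1.35 to 2.89 (2 to 5 of 5) and 4.75 (3 of 5, S100a9 and Retnlg at 0).

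In DCs, no class II gene passed the test. Because no GC tumor held 10 DCs, tumors with at least 5 entered, and 0 of 9 genes were called by limma (0 at an unadjusted p under 0.05), 0 by edgeR and 0 by DESeq2, where limma called 2.92% and edgeR 0.573% of all genes tested in DCs. H2-Aa had 35.9, 37.0, 32.2, 35.8 and 48.8 in control tumors against 59.8 in GC tumor 3 and 20.03 in GC tumor 5, each with 5 DCs. The GC tumors thus lay on both sides of the controls, with a log2 difference of -0.12 ± 0.35 (adjusted p = 0.885). Cd74 behaved likewise, with 53.9 to 94.7 in control tumors against 102.1 and 42.2 (-0.01 ± 0.32, adjusted p = 0.989).

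The mix of DC clusters differed among these few cells. GC tumor 3 held 3 DC 2 and 2 DC 1 cells, and GC tumor 5 held 2 and 3. Leaving out GC tumor 3 or GC tumor 5 left a single GC tumor, and no count is read from those fits. H2-Aa and Cd74 were lower without GC tumor 3 and higher without GC tumor 5, so the result rests on both tumors together. Pooled over all GC tumors, the 9 DC 2 cells had H2-Aa at 65.7 (counting interval 62.0 to 69.6) and Cd74 at 113.5, beside 58.1 and 107.8 in control DC 2, and the 10 DC 1 cells had 27.2 and 33.0 beside 19.2 and 28.9. The ratio of H2-DMb2 to H2-DMb1 UMIs in GC DC 2 was 1.06 (0.700 to 1.62), and 0.588 (0.321 to 1.05) without the 3 cells of GC tumor 3, which held 30 of the 50 H2-DMb2 UMIs. With 4 GC tumors of at least 3 DCs, the exact two-sided permutation test gave p = 0.587 for H2-Aa and 0.103 for H2-DMb1 (5 against 4 tumors, smallest possible p 0.00794). A change of the size seen in TAMs could not be told from no change in DCs at this number of cells.

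Whether the change differed between TAMs and DCs or monocytes was tested on the difference within each tumor. For DCs, with tumors of at least 5 cells, the change in TAMs minus that in DCs was -0.21 to 0.07 on the log2 scale over H2-Aa, H2-Ab1, H2-Eb1 and Cd74 (exact permutation p = 0.714 to 1.0, 5 against 2 tumors). For monocytes the same difference was 0.43 to 1.49 (exact permutation test, adjusted p = 0.0865 to 0.179). None of these 8 differences passed (adjusted over 20 tests), and 5 against 2 tumors cannot give a p below 0.0476.

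**Figure D4:**
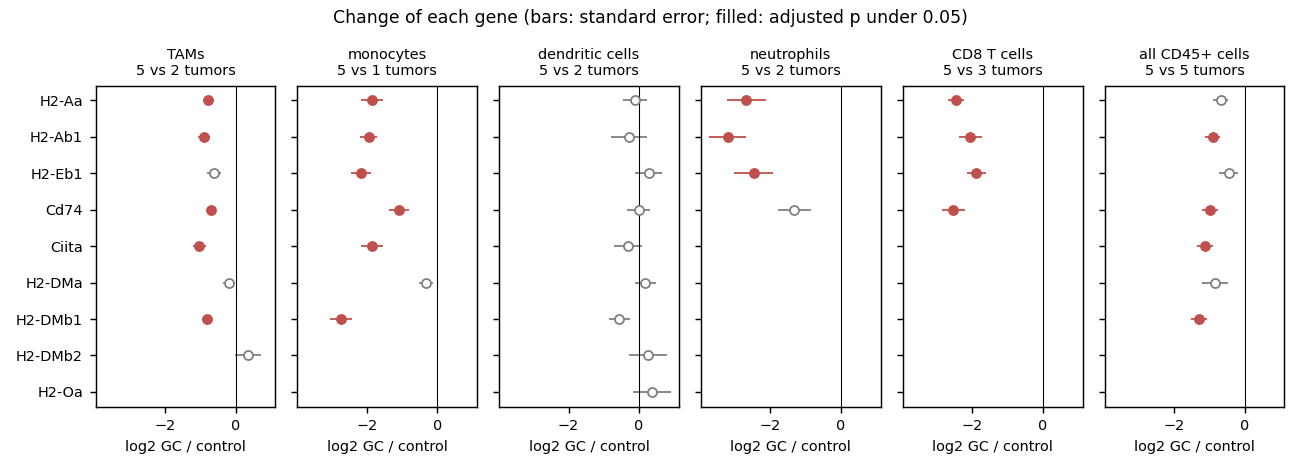
Log2 difference of GC and control tumors (horizontal axis, limma, with standard error bars) for each gene that passed the filter, in 6 cell classes with the number of tumors above each panel, where filled red points had an adjusted p under 0.05. Filled points lie left of 0 in TAMs, monocytes, neutrophils, CD8 T cells and all CD45+ cells, and all 9 points in DCs are open.

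Lymphocytes and granulocytes carried class II UMIs at a low and even level in control tumors. The UMIs of H2-Aa per cell were 0.757% of the TAM value in CD8 T cells, 0.685% in Tregs, 0.897% in NK cells, 0.593% in neutrophils and 0.585% in eosinophils, although the median cell held 6826, 6169, 8736, 4221 and 874 UMIs in those classes. Macrophage genes were found in CD8 T cells at 0.473% to 0.682% of their TAM value, with C1qa at 0.668%, C1qb at 0.682%, C1qc at 0.473%, Apoe at 0.594% and Lyz2 at 0.639%. Levels of the classical genes in these classes were not read as expression. Thinned to 1000 UMIs, 4.56% of control CD8 T cells, 5.18% of Tregs, 5.20% of neutrophils and 8.41% of NK cells held an H2-Aa UMI (26.7% of CD8 T cells and 27.6% of Tregs unthinned), beside 81.7% of TAMs.

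Ratios within the control channel were also compared between CD8 T cells and TAMs. H2-Eb1 to H2-Aa was 0.620 (0.517 to 0.741) in CD8 T cells, an interval that held the TAM value of 0.577. The sum of C1qa, C1qb and C1qc to H2-Aa was 0.555 (0.460 to 0.668) against 0.675, and Cd74 to H2-Aa was 1.88 (1.64 to 2.16) against 2.24, both below TAMs. Of 880 control CD8 T cells, 24.2% held no UMI of the 4 classical genes. One cell held 166 of them together with macrophage markers, and without it the mean per cell went from 1.73 to 1.54.

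Some values stood above that even level. Cd74 per cell in control Tregs was 1.185% of the TAM value (1.095 to 1.28) against 0.636% (0.587 to 0.689) in CD8 T cells, and the ratio of Cd74 to H2-Aa in Tregs was 3.87 (3.25 to 4.63). H2-DMa reached 2.11% of the TAM value in CD8 T cells, and H2-Oa, which is scarce in TAMs, reached 23.5% on 24 UMIs. Among the 253 control cells of the CD4 cluster, 37 cells with at least 3 UMIs of B cell markers (Cd79a, Cd79b, Ms4a1, Pax5, Ebf1 and Ighm) held 66.5% of the H2-Aa and 70.7% of the Cd74 UMIs. H2-Aa stood at 2.92 UMIs per 10000 in those cells and at 0.343 in the other 216. H2-DMb2 had 21 UMIs in those cells and 0 in the others, and H2-Ob, the β chain of H2-O, had 29 and 4. The levels of H2-Aa, Cd74, H2-DMb2 and H2-Ob in the CD4 cluster thus moved with B cell markers. Ciita had 1 UMI in those cells and 5 in the others (0.0268 and 0.0312 per 10000), and no difference is read from so few. Counting intervals overlapped for H2-DMa (0.205 to 0.629 and 0.142 to 0.289) and for H2-Oa (0.110 to 0.457 and 0.0386 to 0.131). The median depth was 9607 UMIs in those cells and 7050 in the others.

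In GC tumors the even level was lower in CD8 T cells. H2-Aa had 0.485, 0.576, 0.662, 0.526 and 0.526 UMIs per 10000 in control CD8 T cells against 0, 0.0349 and 0.0256 in GC tumors 2, 3 and 5. All 4 genes tested fell (H2-Aa, H2-Ab1, H2-Eb1 and Cd74), where 2.74% of all genes tested in CD8 T cells fell, 5.02% changed and 9.55% were lower without overlap. With at least 5 cells, which added GC tumors 1 and 4, limma called 2 of the 4 (3.15% of all genes). H2-Ab1 then had an exact permutation p of 0.0794, since GC tumor 1, with 7 cells and 1 H2-Ab1 UMI, stood at 1.45 above every control tumor, and the other 3 genes had p = 0.00794 (exact, 5 against 5). The pooled UMIs went from 326 to 3 for H2-Aa and from 613 to 18 for Cd74, which gave a ratio of control to GC of 15.9 (5.4 to 77.6) and of 4.99 (3.13 to 8.47). Macrophage genes in the same cells had ratios of 12.9 (2.25 to 515) for C1qa, 8.49 (1.47 to 341) for C1qb, 1.71 (0.539 to 8.68, on 35 and 3 UMIs) for C1qc, 6.94 (2.93 to 21.6) for Apoe and 5.22 (1.74 to 25.7) for Lyz2. H2-Oa, under the filter, went the other way with 24 and 11 UMIs, a ratio of 0.32 (0.151 to 0.723).

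The summed macrophage markers in CD8 T cells were 0.677 to 1.27 in control tumors, with 7 of 7 detected, and 0.0943 to 0.266 in GC tumors, with 1, 4 and 2 of 7 detected and Csf1r and Adgre1 at 0 in each. After thinning, 0 of 106 GC CD8 T cells held an H2-Aa UMI, which allows a share of up to 2.83%. The observed share before thinning was 2.80%. TAMs were 19.0% of the cells recovered in the control channel and 14.1% in the GC channel, and 17100 and 3500 cells were loaded. The part of free RNA in the fall in CD8 T cells was not tested, since empty droplets were not used here.

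**Figure D5:**
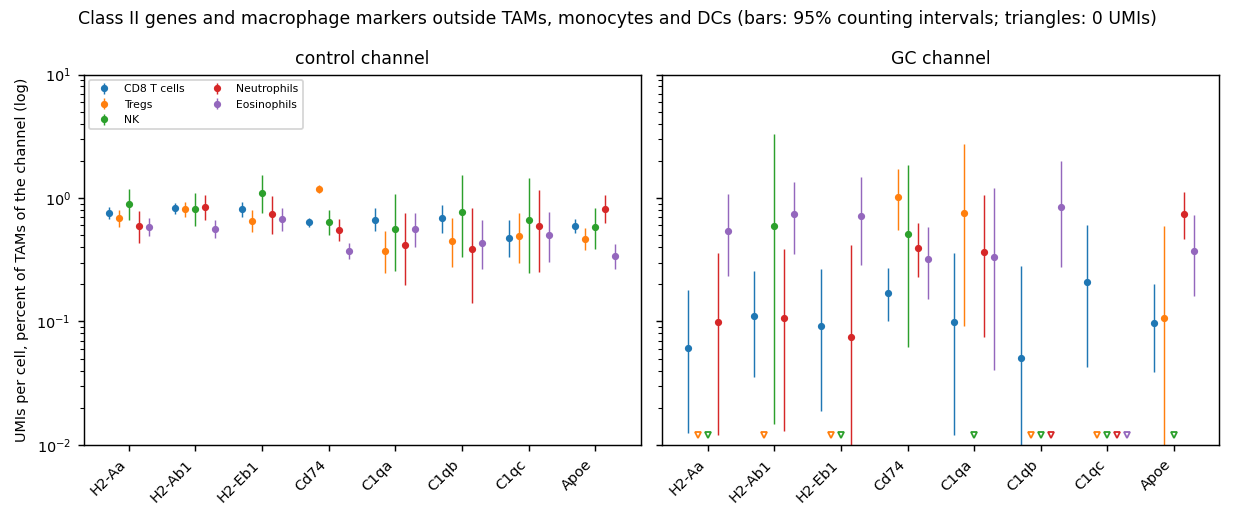
UMIs per cell of class II genes and macrophage markers in 5 cell types as a percent of the TAM value of the same channel (vertical axis, log scale), with 95% counting intervals and open triangles for 0 UMIs. In the control channel all points lie from 0.3366% (Apoe in eosinophils) to 1.185% (Cd74 in Tregs), and in the GC channel H2-Aa in CD8 T cells lies at 0.0610%.

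Neutrophils had few class II UMIs in either group. H2-Aa, H2-Ab1 and H2-Eb1 fell (3 of 4 genes tested, where 2.74% of all genes tested in neutrophils fell and 4.83% changed), each on 1 UMI in the 2 GC tumors tested. Their ratios of control to GC were 13.5 (2.31 to 545), 20.7 (lower bound 3.6) and 9.78 (1.64 to 397). Cd74 had 98 and 13 UMIs, a ratio of 2.17 (1.21 to 4.22), and missed the threshold (adjusted p = 0.112). edgeR called 2 (4.65% of all genes), with H2-Eb1 at an adjusted p of 0.0788. DESeq2 called 0 of 4 (3 at an unadjusted p under 0.05), where it called 162 of all 4411 genes tested. Without cells that held markers of other types, limma called 1 of 4, and the share of all genes is not given for that fit. That rule counted Lyz2 as a macrophage marker and left out 69 of 162 control and 13 of 44 GC neutrophils. Its count is therefore not read as a result without mixed cells. Macrophage markers in neutrophils summed to 4.45 to 9.23 in control (5 to 7 of 7 detected) and to 3.86 and 5.15 in GC tumors (5 of 7 in each, C1qb and C1qc at 0). Most of these UMIs were of Lyz2 (284 in control and 59 in GC tumors), beside 60 and 20 of Apoe and 10 and 3 of C1qa. Whether the Lyz2 UMIs came from macrophages was not tested.

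Eosinophils were the shallowest class, with a median of 874 UMIs. Only GC tumor 2 entered, with 10 cells, and H2-Ab1, H2-Eb1 and Cd74 had 0 UMIs there, at least 1.78-fold, 1.15-fold and 2.46-fold lower than control against the limit of 3 counts. They were the 3 called of 4 tested, where 42.8% of all genes tested in eosinophils were called and 27.1% were called lower, and nothing is read from the count. H2-Aa did not pass (adjusted p = 0.133). With at least 5 cells (5 against 3 tumors), the excess of the log2 fall over that in TAMs was 4.28 for H2-Ab1, 4.30 for H2-Eb1 and 5.00 for Cd74 (each adjusted p = 0.0398, exact test) and 3.14 for H2-Aa (adjusted p = 0.143, exact test). H2-Ab1, H2-Eb1 and Cd74 had 0 UMIs in all 3 GC tumors, so these sizes depend on the pseudocount and are no measure of the change.

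The log2 falls in CD8 T cells and in neutrophils were set against those in TAMs of the same tumors for 4 genes each, and none of these 8 differences passed after adjustment with at least 10 cells. In CD8 T cells the excess was 1.72 for H2-Aa, 1.36 for H2-Eb1 and 1.87 for Cd74 on the log2 scale, and in neutrophils 1.91 for H2-Aa, 2.33 for H2-Ab1 and 1.85 for H2-Eb1. Each of these had the smallest p that 21 arrangements allow, 0.0476 (exact permutation test, adjusted p = 0.0635). With at least 5 cells (5 against 3 tumors) these 6 passed (adjusted p = 0.0398, exact test over 20 differences). H2-Ab1 in CD8 T cells (0.98, p = 0.286, exact) and Cd74 in neutrophils (0.62, p = 0.238, exact) did not reach it. With a pseudocount of 0.5 in place of 0.1 the 8 differences shrank to between 0.0054 and 0.82, and none passed.

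Over all CD45+ cells of a tumor, fewer cells of a type and less RNA per cell cannot be told apart. Cd74, H2-Ab1, Ciita and H2-DMb1 fell (4 of 7 genes tested, where 3.82% of all genes tested fell and 6.15% changed, 5 against 5 tumors). Cd74 had 27.0, 25.6, 18.5, 21.4 and 25.6 UMIs per 10000 in control tumors against 15.5, 15.3, 14.6, 6.85 and 9.70 in GC tumors. Every control tumor was above every GC tumor (-0.98 ± 0.22, adjusted p = 0.0253). Ciita had 0.508 ± 0.121 (SD, n = 5) against 0.185 ± 0.0844 (n = 5), also without overlap (-1.12 ± 0.23, adjusted p = 0.0186), as had H2-DMb1 (1.07 ± 0.154 against 0.395 ± 0.162, -1.30 ± 0.23, adjusted p = 0.00884).

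H2-Ab1 overlapped, with 9.07 to 13.3 in control and 3.57 to 9.11 in GC tumors (-0.91 ± 0.22, adjusted p = 0.0334). H2-Aa (-0.68 ± 0.22, adjusted p = 0.0959), H2-Eb1 (-0.45 ± 0.28, adjusted p = 0.379) and H2-DMa (-0.83 ± 0.37, adjusted p = 0.223) did not pass. The control and GC tumors did not overlap for 3 of the 7 genes, where 7.26% of all genes tested were lower without overlap. edgeR called 3 (9.43% of all genes), with Cd74 at an adjusted p of 0.0666. The count by limma was 1 without control tumor 1 or without control tumor 2, and 2 without control tumor 4 or 5, and a fit weighted by cells gave 1. Without DCs it was 5. The share of all genes called in these refits is not given here, so their counts are not read as particular to class II genes.

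Of the wider pathway, lists held lysosomal processing genes, promoter factors, surface turnover genes and the interferon γ route to Ciita. The counts in TAMs stand beside 14.3% of all genes that fell and 21.2% that changed. Of 6 lysosomal genes in TAMs, 2 fell, Lgmn (legumain, a protease, -0.99 ± 0.15, adjusted p = 0.00138) and Ctsb (cathepsin B, -0.49 ± 0.14, adjusted p = 0.0275), and Ifi30 rose by 0.43 ± 0.12 (adjusted p = 0.0259). Ctss, the protease that degrades the invariant chain, did not pass (-0.18 ± 0.09, adjusted p = 0.201). Of the promoter factors, 1 of 4 tested fell, the Y box subunit Nfyc (-0.70 ± 0.19, adjusted p = 0.0231). Cd83, which keeps class II molecules at the surface, fell by 2.23 ± 0.31 (adjusted p = 0.00132), while March1, the ligase that removes them, did not pass (-0.06 ± 0.14, adjusted p = 0.803). Of the 5 interferon γ pathway genes reported here (Ifngr1, Ifngr2, Jak1, Jak2 and Irf1), 0 were called by limma and 0 by edgeR, and 0 had an unadjusted p under 0.05 by limma.

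In monocytes, where 18.2% of all genes fell and 23.9% changed, the same lists gave Ctsb, Lgmn, Creb1, Cd83, Ifngr2 and Irf1 among the genes that fell and Ctsd and March1 among those that rose. Irf1, a transcription factor that acts on Ciita, fell by 2.26 there on the log2 scale, and March1 rose by 1.13. Over all CD45+ cells, where 3.82% of all genes fell, Ctss, Ctsb, Lgmn and Cd83 fell. The remaining class II loci H2-Ob and H2-Eb2 were under the filter in TAMs and monocytes, and H2-Ea was not analysed here.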

How the data were processed

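Live CD45+ cells of 10 tumors were profiled by 10x 3' single cell RNA sequencing, 1 channel per group. Per the labels and methods, the authors counted UMIs with Cell Ranger 7.1.0 on mm10 with introns included, assigned hashtags and kept single-hashtag cells in Seurat 5.0.3 (R 4.3.1), and removed outlier cells, so doublets between tumors but not within a tumor were removed, and no further doublet caller was run. Partek is also named in the submitters' processing notes. The deposited expression values are the natural log of 1 plus UMIs per 10000. The deposited cell table gives counts of UMIs, genes and hashtag UMIs, the percent of mitochondrial UMIs, the hashtag and the cluster, made after integration of both channels. All 10330441 values above 0 gave whole UMIs within 0.01 when multiplied back by the count of UMIs of the cell (100.0%). Per-sample value columns not used numbered 0.

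Tumors were told apart by hashtag, and replicate numbers are only names. Mean UMIs per 10000 over the cells of a class in a tumor were compared with limma 3.58.1 (trend and robust, R 4.3.3) on log2(value + 0.1), which understates changes of low genes, over genes with a mean of at least 0.2, in tumors with at least 10 cells, with Benjamini-Hochberg adjusted p over all genes tested and a threshold of 0.05. For DCs the minimum was 5 cells, because no GC tumor held 10. Exact two-sided permutation tests over tumors compared changes between classes. CD8 T cells were clusters CD8 1 to 3, monocytes all 3 monocyte clusters and DCs both DC clusters. Alternatives were edgeR 4.0.16 and DESeq2 1.42.0 on recovered UMI sums, a pseudocount of 0.5, no filter, other cell minimums, median-of-ratios scaling, weighting by cells, leaving out cells with markers of other types (for all CD45+ cells, leaving out DCs) and leaving out each tumor. The alternatives of at least 5 cells with edgeR, Monocytes 1 alone and DC minimums of 3 cells were chosen after seeing the data, as were the X box mismatches and spacing and the H2-DMb2 ratios without a tumor. The fits were tested on simulated tumor sums for TAMs, CD8 T cells and all CD45+ cells, with a fixed spread and none between cells. Nearly all changed genes were recovered. False calls by limma were above the threshold in TAMs and CD8 T cells but not in all CD45+ cells. False calls by edgeR stayed under it, but the sums were of the kind that edgeR assumes. The simulation is no measure of false calls in the real data. All listed genes were named in every class, plus pathway genes past the threshold (other pathway genes named for contrast were chosen after their values were seen) and the 10 genes of most like pattern. A few genes of the marker and pathway lists are not reported here. Genes and lists were chosen with earlier results of these data known. Nothing states that the mice of a group differed in cage or day, and p-values measure the spread between these tumors only.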

Additional observations from a re-analysis of the deposited data

Results flagged for a closer look

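Among GC tumors with too few cells for the tests, some stood above all control tumors. In TAMs, GC tumor 5 (7 cells) had H2-Aa at 43.16 and H2-Eb1 at 30.93 UMIs per 10000, where control tumors reached 36.88 and 21.47. In DCs, GC tumor 2 (4 cells) had H2-Aa at 59.73, H2-Ab1 at 55.89 and H2-Eb1 at 48.75, where control tumors reached 48.81, 43.86 and 33.54. In eosinophils, GC tumor 1 (4 cells) had H2-Aa at 16.45, H2-Ab1 at 21.15, H2-Eb1 at 16.45 and Cd74 at 23.5, where control tumors reached 3.593, 4.517, 2.564 and 5.393, and 1 cell held 33 of the 35 UMIs of these genes in GC eosinophils. In CD8 T cells, GC tumor 1 (7 cells) had H2-Ab1 at 1.45, where control tumors had 0.6085 to 0.712.

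In DCs, control tumor 5 stood apart from the other control tumors, with H2-Aa at 48.81 (gap of 0.71 of the range) and H2-Eb1 at 33.54 (gap of 0.852 of the range). In all, 50 groups were examined for such tumors, and chance gives about 5% of groups.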

How the results depend on the processing

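GC tumors gave 18 to 111 cells and no more than 17 TAMs, which limits the precision of every value. In TAMs the count of class II genes called was 3 with at least 5 cells, 3 with at least 5 cells by edgeR and 0 when weighted by cells. Leaving out 1 tumor gave 5 to 8, the 8 without GC tumor 3. In monocytes it was 0 when weighted by cells and 5 to 6 without 1 tumor. In neutrophils it was 0 with DESeq2, 1 without cells with markers of other types and at least 2 without 1 control tumor. In eosinophils it was 1 with DESeq2 and 1 when weighted, and stayed at 3 without 1 tumor. In CD8 T cells it was 2 with at least 5 cells and 3 to 4 without 1 tumor. Over all CD45+ cells it was 2 with no filter, 1 when weighted and 1 to 5 without 1 tumor (1 without control tumor 1 or 2, 2 without control tumor 4 or 5). In DCs, leaving out GC tumor 3 or GC tumor 5 left a single GC tumor, and no count is read from those fits. Counts in this section stand without the share of all genes called and are not read as particular to these genes. With at least 5 cells, the excess of the fall over that in TAMs passed (adjusted p = 0.0398, exact test) in CD8 T cells for H2-Aa (2.04), H2-Eb1 (1.68) and Cd74 (2.05), in neutrophils for H2-Aa (2.42), H2-Ab1 (1.99) and H2-Eb1 (2.41) and, on 0 UMIs in the GC tumors, in eosinophils for H2-Ab1 (4.28), H2-Eb1 (4.30) and Cd74 (5.00). Direction turned for H2-DMa in TAMs without GC tumor 2 (0.15, and -0.53 without GC tumor 3) and for genes in DCs, none of which was called there in the reported test. With edgeR these DC values were 0.25 for H2-Ab1, 0.21 for H2-Aa and 0.15 for Cd74, and with DESeq2 0.29, 0.24 and 0.18. Cd74 was at 0.064 when weighted, 0.0033 without control tumor 1 and 0.12 without control tumor 5. Without GC tumor 3, H2-Oa was at -0.89, H2-DMa at -0.25, H2-DMb2 at -0.92, H2-Eb1 at -0.60, Ciita at -1.10, H2-Ab1 at -1.49, H2-Aa at -0.90 and Cd74 at -0.65. Without GC tumor 5, Ciita was at 0.47, H2-Ab1 at 0.91, H2-Aa at 0.67, Cd74 at 0.62, H2-Oa at 1.61, H2-DMa at 0.61, H2-DMb2 at 1.43 and H2-Eb1 at 1.13. With at least 3 cells, H2-DMa was at -0.50, H2-Aa at 0.20 and Cd74 at 0.10, and by edgeR H2-Ab1 was at 0.25, H2-Aa at 0.35 and Cd74 at 0.15. The causes were not tested. Genes called in the reported tests kept their direction under every alternative run. Of genes called in TAMs, 32.4% rose with limma, 61.9% with edgeR and 47.9% with median-of-ratios scaling, so the share of falls among all genes depends on scaling. No paired analysis was possible because the hashtag numbers are only names.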
